A study of Sus scrofa with 6 samples.

Results

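The comparison set the pig embryonic stem cell line PA_1, derived from a parthenogenetic embryo, against IVF_1, derived from an embryo fertilised in vitro, across the genes outside the imprinted, pluripotency and lineage lists. Those lists took out 310 of the 31908 genes in the deposited table, which left 31598 genes, of which 14958 had enough counts to be tested (15197 over the whole table). All lines carry the wild-type genotype per the labels and were kept in the medium that the labels call FIW, and each line gave 2 bulk RNA libraries. A second parthenogenetic line, PA_3, with 2 libraries, entered the shared fit and is set beside the pair where it bears on a gene. There was 1 line of fertilised origin, so the origin of the embryo and the line cannot be told apart. The labels do not say that the 2 libraries of a line came from separate cultures, and the p-values may therefore measure technical spread only. Sex, passage and donor animals are not in the labels used here.

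A parthenogenetic embryo arises from an egg that starts to divide without sperm, so all of its chromosomes are of maternal origin. The genes best known to depend on that origin are the imprinted genes, which carry a parental mark and which were set aside here together with the genes that define pluripotent, germ-layer, placental and germ cells. What remained were the other genes, among them those of ribosome building, protein folding, stress responses, adhesion, channels, signalling and metabolism. Neuronal, HOX and other developmental genes that were not on those lists remained as well. Embryonic stem cells grow as an epithelium with a high demand for protein and nucleotide synthesis.

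The PA_1 libraries held 28575817 and 18208997 counts and the IVF_1 libraries 16608237 and 15248306 counts. Counts of the mitochondrial chromosome made up 7.97 and 9.65% of the PA_1 libraries, against 7.67 and 8.29% of the IVF_1 libraries. On raw counts the chi-square per degree of freedom between the 2 libraries of a line was 11.58 for PA_1 and 2.78 for IVF_1. Sampling noise alone gives about 1. Beyond sampling noise this measure grows with the number of counts, and the PA_1 libraries were deeper. On log2 CPM the 2 libraries of a line correlated nearly equally, with a Pearson coefficient of 0.9912 in PA_1 and 0.9914 in IVF_1. Markers of pluripotent cells, 8 of 10 listed being in the table, summed to 3616 and 3806 CPM (counts scaled to the same library size) in PA_1 and to 5751 and 5691 CPM in IVF_1. The lower sum in PA_1 came mostly from DNMT3B, and both DNMT3B and NANOG were called lower. POU5F1, CDH1, EPCAM and LIN28A were lower in each PA_1 library than in each IVF_1 library without being called. OTX2 and LIN28B were not called, and their libraries overlapped between the lines. Fibroblast markers summed to 65.4 and 55.4 CPM in PA_1 and to 64.0 and 63.4 CPM in IVF_1, and of the 9 that the table held 5 had enough counts to be tested, none of which was called. Markers of mesoderm stayed under 1 CPM in sum in all 4 libraries, and those of blood reached at most 2.03 CPM. Endoderm markers summed to 50.1 and 49.4 CPM in PA_1 and to 51.1 and 53.6 CPM in IVF_1, and APOA1 alone had 45.6 and 45.2 CPM in PA_1 and 40.2 and 41.8 CPM in IVF_1. The endoderm markers GATA4, SOX17 and GATA6 were called lower, GATA4 having 0 and 0.109 CPM in PA_1 and 3.75 and 4.25 CPM in IVF_1. Trophoblast markers summed to 11.8 and 12.3 CPM in PA_1 and to 16.4 and 15.7 CPM in IVF_1, with GATA3 and TFAP2A called lower. Neural markers summed to 585 and 494 CPM in PA_1 and to 403 and 388 CPM in IVF_1, with STMN2 and PAX6 called higher. CDX2, MIXL1, HAND1, HBZ and AFP had no count in these libraries, which allows up to 0.063 CPM over the PA_1 libraries and 0.094 CPM over the IVF_1 libraries, for counting error only. The part of other cell types in the differences between the lines was not tested.

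Of the 14958 genes, 1092 were higher in PA_1 and 831 were lower than in IVF_1, at an adjusted p under 0.05 in edgeR's quasi-likelihood test and a fold of at least 1.5, the rule behind every use of rose, fell or called here. Over all 15197 tested genes the shares were 7.34% higher and 5.93% lower, and by adjusted p alone 15.3% higher and 16.1% lower. A list whose shares lie near these is not set apart from all genes by its calls. The count reached 943 genes at 2-fold or more, 543 higher and 400 lower. Without PA_1 replicate 1 the counts over all tested genes were 954 higher and 861 lower, and without PA_1 replicate 2 they were 1328 and 972. Without IVF_1 replicate 1 they were 772 higher and 659 lower, and without IVF_1 replicate 2 they were 886 and 763. A value in brackets after a gene with no other name is its log2 fold change of PA_1 over IVF_1, with the standard error (SE) where given, and a median of a list is that of the same quantity, which was 0.00 over all genes. In bulk RNA, fewer cells that express a gene and less of its RNA per cell cannot be told apart. Where a gene is given by its number of counts, that is the raw sum over the 2 libraries of a line, not scaled for depth. The PA_1 libraries were deeper than the IVF_1 libraries, so such counts overstate increases in PA_1 and understate decreases.

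Calls were counted by level, with no test between levels. Of the 4021 genes with 1 to 10 CPM in the higher line, 15.5% rose and 10.5% fell, while of the 2237 genes with at least 100 CPM 2.1% rose and 3% fell. The shares of lists were not adjusted for level, so for lists of weakly expressed genes the shares over all genes are a loose yardstick. Genes were also ranked by TPM (the authors' scale per gene length and library), leaving out mitochondrial genes and genes without a symbol but keeping the set-aside genes. Among the 100 genes of highest TPM in PA_1 by this ranking, 93 were also among the top 100 of IVF_1. None of these 100 was called by edgeR, nor at an unadjusted p under 0.05 with 1.5-fold (0 genes), by DESeq2 (0) or by limma-voom (0), and 1 was called higher without IVF_1 replicate 2. By adjusted p alone 5 of them were higher and 11 lower. Of the long noncoding RNA genes 15% rose and 6.86% fell, and of the protein-coding genes 6.72% rose and 5.83% fell. The library kit marks strand per the labels, but which counter was run and with what strand setting is not stated, so counts of overlapping and antisense genes are uncertain. The difference between these 2 gene classes was not tested.

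**Figure D1:**
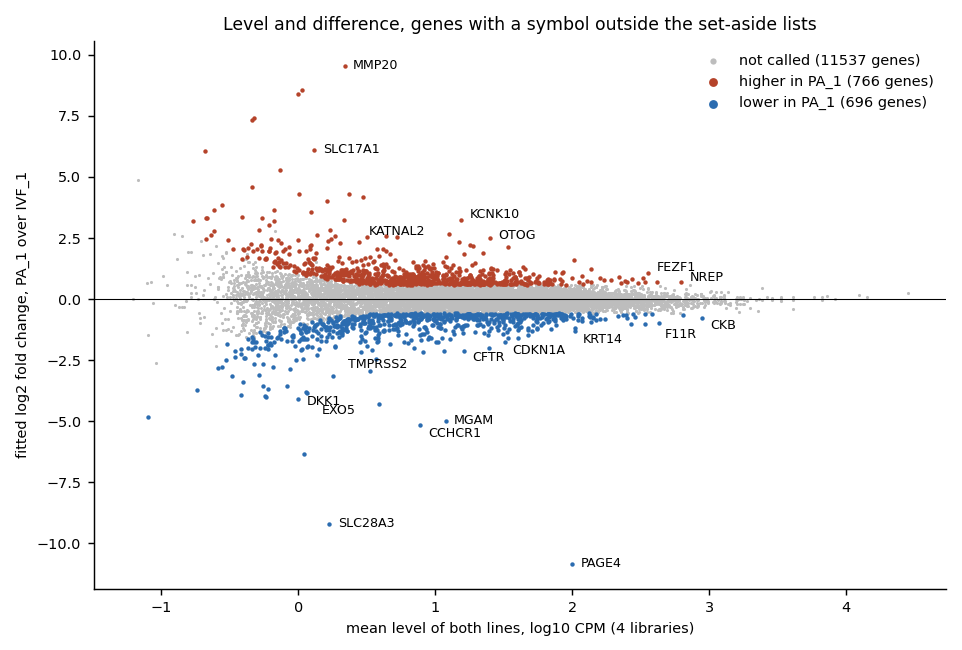
Log2 fold change of PA_1 over IVF_1 (vertical axis) against the mean level of both lines in CPM (horizontal axis, log10 scale) for the tested genes that have a symbol and lie outside the lists set aside, each point a gene, coloured by call. Called genes fan out at low and middle levels on both sides of 0, while the genes at the right edge stay close to 0, and SLC28A3 and PAGE4 lie lowest. The fitted fold of a gene with no count in one line, such as MMP20, depends on the prior count.

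Ranked by fold, with genes that lack a symbol left out and 5 CPM required in PA_1, the largest increases included a channel, surface proteins and a cytoskeletal enzyme. KCNK10, a background potassium channel at chr7:110118067-110271481 of build Sscrofa11.1, had 26.6 and 29.4 CPM in PA_1, against 2.90 and 3.08 CPM in IVF_1 (log2 fold change 3.22, SE 0.16, edgeR adjusted p = 1.59e-10). CNTN1, a contactin of neuronal surfaces, had 7.6 and 7.36 CPM in PA_1, against 1.33 and 1.18 CPM in IVF_1 (log2 fold change 2.57, SE 0.21, edgeR adjusted p = 1.07e-07), and KATNAL2, a relative of the microtubule-severing enzyme katanin, had 22 and 21.3 CPM in PA_1, against 3.69 and 3.08 CPM in IVF_1 (log2 fold change 2.68, SE 0.15, edgeR adjusted p = 8.11e-10). In all 3 genes both PA_1 libraries lay several times above both IVF_1 libraries, the choice of genes having required that the libraries do not overlap. PTX3, a secreted pentraxin of innate immunity, had 26.2 and 32.7 CPM in PA_1, against 5.86 and 6.67 CPM in IVF_1 (log2 fold change 2.23), and CA14, a membrane carbonic anhydrase, had 57.5 and 52.4 CPM in PA_1, against 12.9 and 12.6 CPM in IVF_1 (2.11). MATN2, a matrilin of the extracellular matrix, had 33.1 and 36.8 CPM in PA_1, against 9.55 and 9.16 CPM in IVF_1 (1.90). The same direction was found for OTOG, a gel protein of the inner ear (2.52), UMODL1 (2.55), the receptor gene VIPR2 (2.53), THNSL2 (2.34), TIAM2, an activator of RAC1 (2.19), the cytokine gene IL34 (2.07), RIMBP2 of presynaptic terminals (2.05) and the muscle gene MYOM1 (1.95).

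Ranked the same way, with 5 CPM required in IVF_1, the largest decreases took several genes close to 0 in PA_1. PAGE4, a gene of the PAGE family at chrX:43490120-43496656, had 0.102 and 0.109 CPM in PA_1, against 201 and 199.7 CPM in IVF_1, and 5 counts in all stood behind the PA_1 value. MGAM, the starch-digesting maltase-glucoamylase of the intestinal brush border at chr18:7871532-7970169, had 0.780 and 0.654 CPM in PA_1, against 23.1 and 23 CPM in IVF_1 (log2 fold change -4.97, SE 0.17, edgeR adjusted p = 1.49e-12). CCHCR1, a coiled-coil protein at chr7:23543923-23558048, had 0.203 and 0.764 CPM in PA_1, against 14.1 and 16.2 CPM in IVF_1 (log2 fold change -5.14, SE 0.28, edgeR adjusted p = 1.54e-09). The fitted fold change of CCHCR1 was -4.29 without PA_1 replicate 1 and -6.16 without PA_1 replicate 2. In PA_3 these 3 genes were as high as in IVF_1 or higher, at 376 CPM for PAGE4, 24.4 CPM for MGAM and 17.2 CPM for CCHCR1, and each differed between PA_1 and PA_3 (edgeR adjusted p = 3.98e-19, 5.28e-13 and 3.79e-10). EXO5, an exonuclease of single-stranded DNA, had 0.373 and 0.382 CPM in PA_1, against 7.55 and 7.26 CPM in IVF_1 (-4.28), and it averaged 0.019 CPM in PA_3. TMPRSS2, a membrane serine protease of epithelia, had 2.81 and 3.16 CPM in PA_1, against 13.1 and 13.6 CPM in IVF_1 (log2 fold change -2.16, SE 0.16, edgeR adjusted p = 4.89e-08). CFTR, the chloride channel of epithelia, had 5.53 and 6.87 CPM in PA_1, against 26.9 and 25.8 CPM in IVF_1 (log2 fold change -2.11, SE 0.13, edgeR adjusted p = 3.89e-09). IL17B, a cytokine, had 9.33 and 10.4 CPM in PA_1, against 39 and 40.6 CPM in IVF_1 (-2.02), and DNAJB13, an axonemal protein, averaged 0.761 ± 0.074 CPM in PA_1 and 5.96 ± 0.376 CPM in IVF_1 (SD, n = 2 each). The other genes with a symbol in that ranking were S1PR5 (-2.44), SPRY4 (-2.14), CAVIN1 (-2.08), CSKMT (-2.02), ITLN2 (-1.92), UNC5C (-1.82) and NEFM (-1.80).

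A few genes were counted in one line and had few or no counts in the other. MMP20, the enamel metalloprotease, had 4.10 and 4.64 CPM in PA_1, against 0 and 0 CPM in IVF_1, which is at least 46.4-fold higher against the floor of 3 counts over the IVF_1 libraries. SLC28A3, a nucleoside transporter, had 0 and 0 CPM in PA_1, against 3.69 and 3.08 CPM in IVF_1, and was lower by at least 53.9-fold against the floor of 3 counts over the PA_1 libraries. SLC17A1, a phosphate and urate transporter of the kidney, had 121 counts in the PA_1 libraries and 1 in the IVF_1 libraries, and CD36, a scavenger receptor for fatty acids, had 59 counts in the PA_1 libraries and 3 in the IVF_1 libraries. STMN4, a stathmin of neurons, had 43 counts in the PA_1 libraries and 1 in the IVF_1 libraries.

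Ranked by the difference in CPM, the increases included genes that act in the cytoskeleton, the matrix and axon guidance. NREP, a small neuronal protein, had 741 and 799 CPM in PA_1, against 462 and 490.3 CPM in IVF_1 (log2 fold change 0.69, SE 0.072, edgeR adjusted p = 1.8e-06). FEZF1, a zinc finger factor of the forebrain, had 498 and 475 CPM in PA_1, against 224 and 238 CPM in IVF_1 (log2 fold change 1.07, SE 0.086, edgeR adjusted p = 1.72e-07). MARCKS, which binds actin at the membrane, had 499 and 528 CPM in PA_1, against 313 and 320.3 CPM in IVF_1 (0.70), and COL2A1, the collagen of cartilage, had 452 and 396 CPM in PA_1, against 241 and 230.2 CPM in IVF_1 (0.85). GSN, the actin-severing protein gelsolin, had 379 and 324 CPM in PA_1, against 199.7 and 195 CPM in IVF_1 (0.83). The others were ROBO1 (0.68), the collapsin response mediator DPYSL3 (0.90), LTBP1, which holds latent TGF-beta (0.76), the R-spondin receptor LGR4 (0.69) and CDH11 (0.64). The decreases were led by CKB, the brain creatine kinase, with 682 and 614 CPM in PA_1, against 1177 and 1062 CPM in IVF_1 (log2 fold change -0.79, SE 0.072, edgeR adjusted p = 4.24e-07). F11R, a junctional adhesion molecule, had 274 and 299.7 CPM in PA_1, against 572 and 573 CPM in IVF_1 (log2 fold change -1.0, SE 0.066, edgeR adjusted p = 1.05e-08). DNAJB6, a co-chaperone, had 222 and 227 CPM in PA_1, against 447 and 462 CPM in IVF_1 (-1.02), and GTF3C1, a subunit of a basal factor for RNA polymerase III, had 173 and 181 CPM in PA_1, against 372 and 348 CPM in IVF_1 (-1.02). In these 4 genes every PA_1 library lay below every IVF_1 library, which the choice of called genes with a large difference makes likely beforehand. NME2, a nucleoside diphosphate kinase, also fell (-0.77). Calls were lost under the settings that follow, each with its log2 fold change and adjusted p: CDH11 without IVF_1 replicate 1 (0.58, 0.00123).

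**Figure D2:**
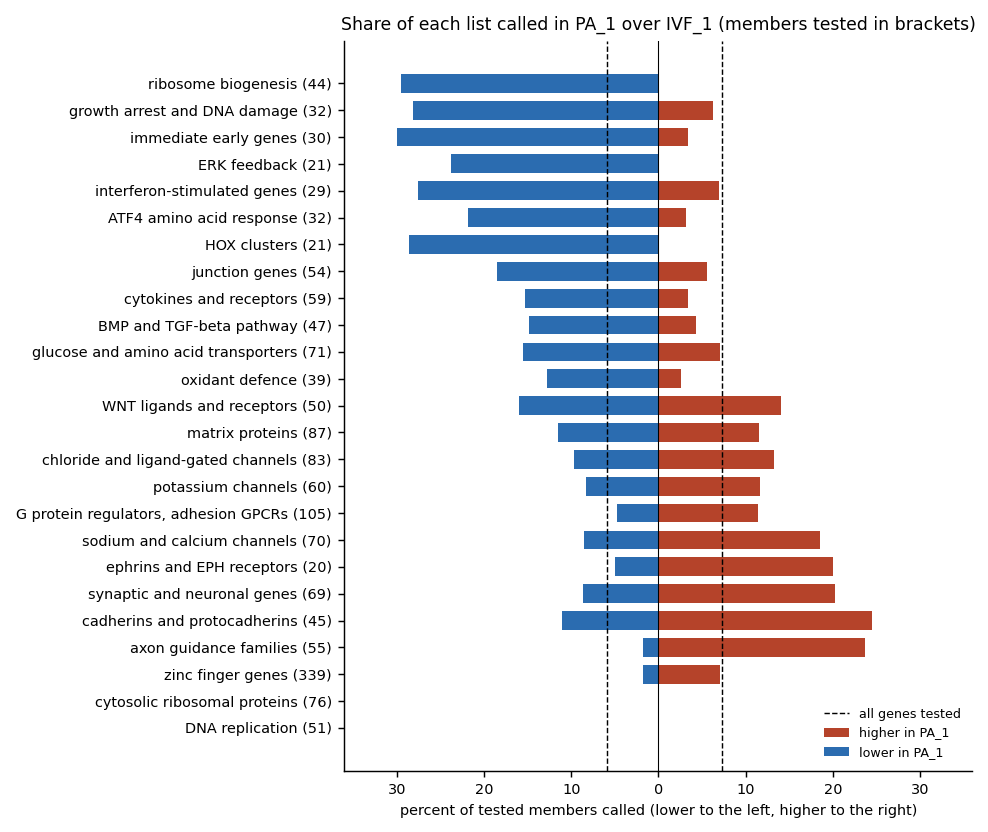
Percent of tested members of 25 gene lists that were called higher (red bars, to the right) and lower (blue bars, to the left) in PA_1 than in IVF_1, with dashed lines at the shares over all genes, 7.34% higher and 5.93% lower, and the number of tested members in brackets. The longest bars on the lower side belong to immediate early genes, ribosome biogenesis, HOX clusters and growth arrest genes. Those on the higher side belong to cadherins, axon guidance, synaptic genes and ephrins. The shares are not adjusted for the level of the genes.

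Among genes of growth arrest and the response to DNA damage more fell in PA_1 than rose. Of 32 tested members 9 fell and 2 rose, with a median log2 fold change of -0.22 against 0.00 over all genes, and by adjusted p alone 14 were lower and 3 higher. CDKN1A, the cell cycle inhibitor p21 at chr7:32359455-32363761, had 18 and 11.2 CPM in PA_1, against 51.7 and 48.6 CPM in IVF_1 (log2 fold change -1.75, SE 0.16, edgeR adjusted p = 2.36e-06). PHLDA3, which restrains AKT, had 70.3 and 57.9 CPM in PA_1, against 149 and 143 CPM in IVF_1 (log2 fold change -1.18, SE 0.088, edgeR adjusted p = 3.94e-08), and the kinase gene PLK2 had 13.7 and 11.4 CPM in PA_1, against 34.7 and 31.2 CPM in IVF_1 (log2 fold change -1.38, SE 0.12, edgeR adjusted p = 1.95e-07). Every PA_1 library was below every IVF_1 library in these 3 genes, which were picked for a small adjusted p, so this adds no separate support. ZMAT3, an RNA-binding protein, had 10.4 and 9.76 CPM in PA_1, against 22 and 22 CPM in IVF_1 (-1.12), and PMAIP1, a killer protein of the BCL2 family, had 5.97 and 9.05 CPM in PA_1, against 18.8 and 21.1 CPM in IVF_1 (-1.45). MDM2, a ubiquitin ligase, fell, with 37.7 and 45 CPM in PA_1, against 65.1 and 64.3 CPM in IVF_1 (-0.65), and its relative MDM4 rose, with 86.0 and 81.3 CPM in PA_1, against 49.4 and 56.5 CPM in IVF_1 (0.66). The death receptor gene FAS had 2.75 and 2.02 CPM in PA_1, against 5.92 and 5.96 CPM in IVF_1 (-1.29). MDM2 and FAS are named after their values were seen. Calls were lost under the settings that follow, each with its log2 fold change and adjusted p: MDM2 without PA_1 replicate 1 (-0.53, 9.47e-06); MDM4 without IVF_1 replicate 1 (0.57, 0.0022). Of the growth arrest list, the higher count was 0 without IVF_1 replicate 1. The list had 6 lower calls without PA_1 replicate 1.

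PA_3 differed from PA_1 in CDKN1A and PHLDA3, and the test found no difference in MDM2. CDKN1A was at 18 and 11.2 CPM in PA_1, 0.126 and 0.114 CPM in PA_3 and 51.7 and 48.6 CPM in IVF_1 (log2 fold change of PA_1 over PA_3 6.89, edgeR adjusted p = 8.02e-09), and PHLDA3 was at 70.3 and 57.9 CPM in PA_1, 4.83 and 5.41 CPM in PA_3 and 149 and 143 CPM in IVF_1 (log2 fold change of PA_1 over PA_3 3.65, edgeR adjusted p = 2.44e-13). PA_1 lay between the other lines in both genes. MDM2 was at 37.7 and 45 CPM in PA_1, 41.6 and 39 CPM in PA_3 and 65.1 and 64.3 CPM in IVF_1 (log2 fold change of PA_1 over PA_3 0.03, edgeR adjusted p = 0.816). The comparisons of PA_1 with IVF_1 and with PA_3 share the PA_1 libraries, so their values are not independent.

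**Figure D3:**
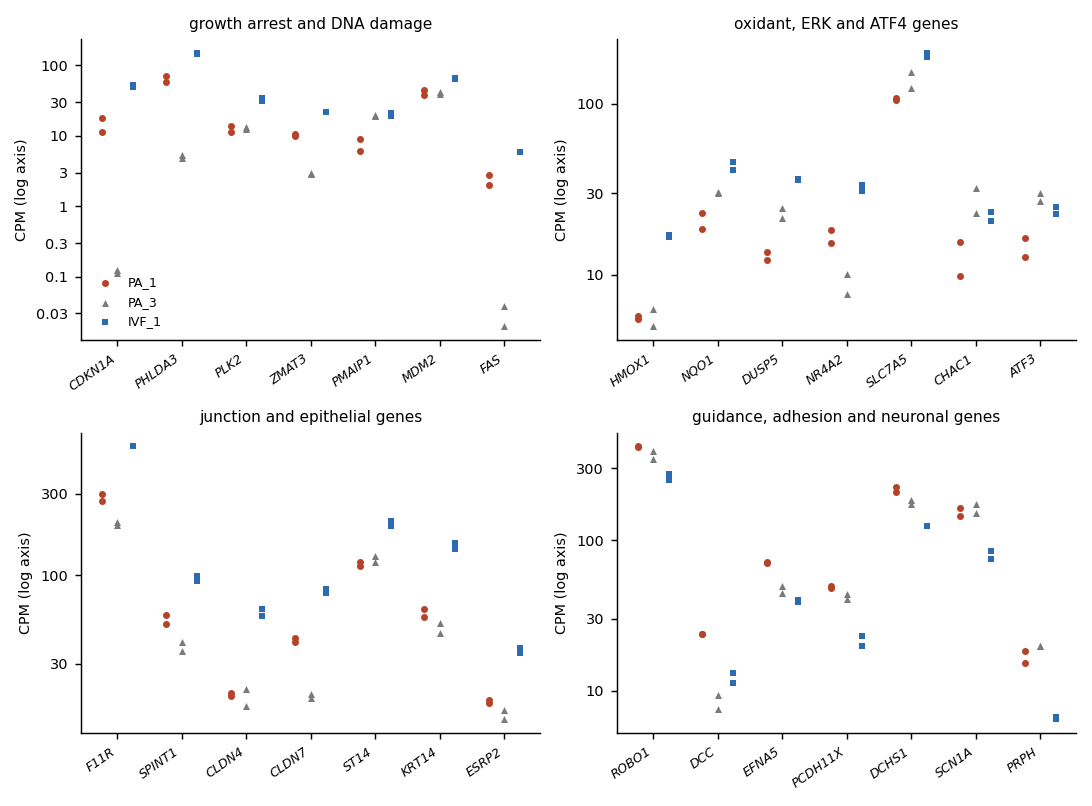
Level of single genes in each library in CPM (log axis) in 4 panels of 7 genes each, with PA_1, PA_3 and IVF_1 from left to right and 1 point per library (red circles, grey triangles and blue squares); a value under 0.02 CPM is drawn at 0.02. The 2 libraries of a line lie close together in most genes, and PA_3 falls on the PA_1 side in some genes and on the IVF_1 side in others.

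Among genes that build ribosomes every call was a decrease in PA_1, and among the genes of the ribosome's own proteins there was no call. Of 44 tested genes of ribosome biogenesis and the nucleolus 13 fell and none rose, with a median log2 fold change of -0.41, and 37 were lower by adjusted p alone (edgeR gave 0 at an unadjusted p under 0.05 with 1.5-fold, DESeq2 0 and limma-voom 0 on the higher side). DKC1, which modifies ribosomal RNA and belongs to telomerase, at chrX:125218923-125229529, had 81.6 and 83.2 CPM in PA_1, against 154 and 149.5 CPM in IVF_1 (log2 fold change -0.88, SE 0.069, edgeR adjusted p = 8.17e-08). MYBBP1A, a nucleolar protein, had 176 and 187 CPM in PA_1, against 290.2 and 288 CPM in IVF_1 (log2 fold change -0.67, SE 0.072, edgeR adjusted p = 2.57e-06). TCOF1, which supports transcription of ribosomal DNA, fell (-0.73, SE 0.075), as did RRP12 (-0.65, SE 0.075), and among the most abundant members NCL, the nucleolin gene, had 1289 and 1428 CPM in PA_1, against 1943 and 1922 CPM in IVF_1 (-0.51) and NPM1, the nucleophosmin gene, 1659 and 1822 CPM in PA_1, against 2270 and 2204 CPM in IVF_1 (-0.36). NCL and NPM1, chosen after their values were seen, passed the adjusted p (edgeR 3.44e-05 and 0.000574) but not 1.5-fold. Of the ribosome biogenesis list, the lower count was 8 without PA_1 replicate 1. Without PA_1 replicate 1 the lower calls by adjusted p alone were 35, and DESeq2 called 13 at 1.5-fold. Of 76 tested genes of cytosolic ribosomal proteins none was called in either direction, with a median of 0.04 (edgeR gave 0 at an unadjusted p under 0.05 with 1.5-fold, DESeq2 0 and limma-voom 0 higher, and 0, 0 and 0 lower by the same 3 counts). By adjusted p alone 6 of them were higher and 3 lower.

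In most other lists of protein synthesis, folding and turnover more genes were lower than higher by adjusted p alone, with median log2 fold changes between -0.27 and 0.07. Over all genes the shares by adjusted p alone were 15.3% higher and 16.1% lower. Of the lists with more lower genes, the respiratory chain lay closest to these shares. The difference from all genes was not tested. By adjusted p alone, 28 of 74 mitochondrial ribosomal protein genes were lower and 2 higher, with a median of -0.22, and MRPL49 fell (-0.71, SE 0.11). For the tRNA synthetases the counts were 17 lower and 1 higher of 36 (median -0.19), and for the translation factors 27 and 2 of 69 (-0.13). EIF4EBP1, which holds back cap-dependent translation when unphosphorylated, fell (-0.75, SE 0.13). In the unfolded protein response list 14 of 25 were lower (-0.27). HSPA5, the main chaperone of the endoplasmic reticulum, chosen after its values were seen, had 374 and 375 CPM in PA_1, against 492 and 500.1 CPM in IVF_1 (log2 fold change -0.40, SE 0.063, edgeR adjusted p = 0.000139), under 1.5-fold. Chaperones had 19 lower and 2 higher of 37 (-0.20), and HSPB8, a small heat shock protein, averaged 2.06 ± 0.325 CPM in PA_1 and 5.59 ± 0.048 CPM in IVF_1 (SD, n = 2 each; log2 fold change -1.47). In the proteasome list 18 of 45 were lower (-0.18), with the subunit of the immunoproteasome PSMB8 at 3 counts in the PA_1 libraries and 19 in the IVF_1 libraries. Nuclear genes of the respiratory chain had 19 lower and 3 higher of 79 (-0.13), and of the mitochondrial genome 2 of 13 were higher (0.07). The direction in the mitochondrial genome turned with the library left out, with 8 genes higher without PA_1 replicate 1 and 4 lower without PA_1 replicate 2.

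At 1.5-fold few genes of these lists were called, and the lower calls were 2 mitochondrial ribosomal protein genes, 1 tRNA synthetase, 3 translation factors, 1 gene of the unfolded protein response, 3 chaperones, 2 proteasome genes and 1 respiratory chain gene. Of the mitochondrial ribosomal list, the higher count was 0 without IVF_1 replicate 2 and the lower count was 4 without PA_1 replicate 1 and 1 without PA_1 replicate 2. Of the tRNA synthetase list, the higher count was 1 without PA_1 replicate 2 and the lower count was 0 without PA_1 replicate 2. Of the translation factor list, the higher count was 1 without PA_1 replicate 1. Of the unfolded protein list, the higher count was 1 without PA_1 replicate 1 and the lower count was 0 without PA_1 replicate 2. Of the chaperone list, the higher count was 1 without PA_1 replicate 2 and 1 without IVF_1 replicate 2. Of the proteasome list, the lower count was 1 without PA_1 replicate 1 and 1 without IVF_1 replicate 1. Of the respiratory chain list, the higher count was 1 without PA_1 replicate 1 and the lower count was 0 without IVF_1 replicate 1 and 2 without IVF_1 replicate 2. Without IVF_1 replicate 1 the lower counts by adjusted p alone were 10 mitochondrial ribosomal protein genes, 7 tRNA synthetases, 17 translation factors, 10 chaperones, 5 proteasome genes and 5 respiratory chain genes, when the count over all genes was 1182. Without IVF_1 replicate 2 they were 13, 14, 24, 14, 9 and 11 in the same order, and 1456 over all genes. Ribosome biogenesis genes numbered 29 without IVF_1 replicate 1 and 34 without IVF_1 replicate 2.

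**Figure D4:**
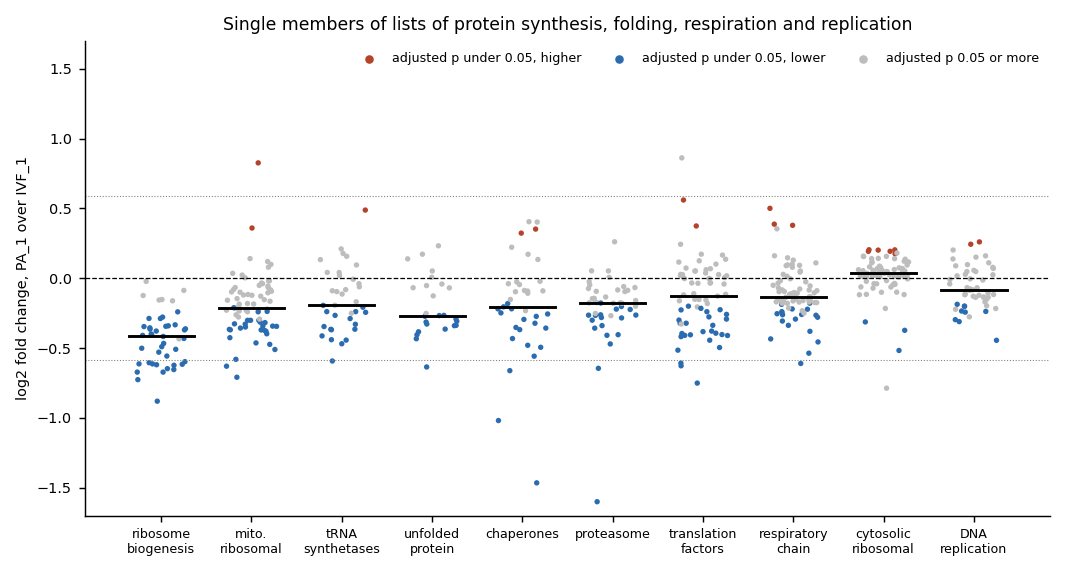
Log2 fold change of PA_1 over IVF_1 for each tested member of 10 lists of cell machinery, each point a gene coloured by adjusted p alone, with a black bar at the list's median and dotted lines at 1.5-fold. Ribosome biogenesis lies furthest below 0 (median -0.41) and cytosolic ribosomal proteins lie on it (0.04); PSMB8 lies past the axis and is drawn at its edge.

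Among genes of amino acid and oxidant stress more fell in PA_1 than rose. Of 32 tested genes of the ATF4 response to amino acid shortage 7 fell and 1 rose (median -0.26), and by adjusted p alone 15 were lower and 2 higher. SLC7A5, an importer of large neutral amino acids, had 108 and 105 CPM in PA_1, against 198 and 187 CPM in IVF_1 (log2 fold change -0.85, SE 0.087, edgeR adjusted p = 2.17e-06). SLC7A11, the cystine importer, fell (-0.84, SE 0.18), and the glycine transporter gene SLC6A9 did too (-0.73, SE 0.14). ATF4 itself, chosen after its values were seen, had 135 and 177 CPM in PA_1, against 195 and 189 CPM in IVF_1 (log2 fold change -0.30, SE 0.10, edgeR adjusted p = 0.0391), a difference under 1.5-fold. The increase, in the lipoprotein receptor gene VLDLR, was lost without PA_1 replicate 1, when its log2 fold change was 0.45, as against 0.65. Calls were lost under the settings that follow, each with its log2 fold change and adjusted p: ATF3 without PA_1 replicate 1 (-0.54, 0.000689); CHAC1 without IVF_1 replicate 1 (-0.74, 0.131), without IVF_1 replicate 2 (-0.90, 0.0677) and without PA_1 replicate 1 (-0.51, 0.161), where ATF3, a stress-induced factor of that list, had 12.7 and 16.4 CPM in PA_1, against 25 and 22.6 CPM in IVF_1 and CHAC1, which breaks down glutathione and was named after its values were seen, 9.90 and 15.5 CPM in PA_1, against 23.2 and 20.8 CPM in IVF_1. Of the ATF4 list, the higher count was 0 without PA_1 replicate 1 and the lower count was 4 without PA_1 replicate 1 and 4 without IVF_1 replicate 1. Of 39 genes of oxidant and glutathione defence 5 fell and 1 rose (median -0.23). HMOX1, heme oxygenase, had 5.49 and 5.78 CPM in PA_1, against 17 and 16.7 CPM in IVF_1 (log2 fold change -1.58, SE 0.14, edgeR adjusted p = 3.74e-07), and NQO1, a quinone reductase, had 18.5 and 23.1 CPM in PA_1, against 45.7 and 40.9 CPM in IVF_1 (log2 fold change -1.07, SE 0.11, edgeR adjusted p = 1.7e-06). The glutathione transferase gene GSTM3 rose (0.95, SE 0.20), with 8.99 and 7.04 CPM in PA_1, against 4.59 and 3.73 CPM in IVF_1 and no count in PA_3. GCLM, a subunit of the enzyme for glutathione synthesis, and TXNRD1, a thioredoxin reductase, chosen after their values were seen, passed the adjusted p in opposite directions (-0.45 and 0.43). Of the oxidant list, the higher count was 2 without PA_1 replicate 2 and the lower count was 3 without PA_1 replicate 1.

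Immediate early genes, which growth factors switch on within minutes, and the feedback genes of ERK signalling had more decreases in PA_1 than increases. Of 30 tested immediate early genes 9 fell and 1 rose, with a median of -0.32. DUSP5, a nuclear phosphatase of ERK, had 12.2 and 13.6 CPM in PA_1, against 36.3 and 35.7 CPM in IVF_1 (log2 fold change -1.49, SE 0.11, edgeR adjusted p = 3.47e-08). NR4A2, an orphan nuclear receptor, had 15.3 and 18.3 CPM in PA_1, against 31.1 and 33.6 CPM in IVF_1 (log2 fold change -0.95, SE 0.13, edgeR adjusted p = 2.8e-05). The matricellular gene CCN1 fell (-0.83, SE 0.13), as did the AP-1 genes FOSL1 (-2.03, SE 0.38) and FOSL2 (-1.27, SE 0.24), FOSL2 being named after its values were seen. EGR1 and FOS, the genes that best define the class and also named after their values were seen, were not called: EGR1 had 17.3 and 4.53 CPM in PA_1, against 8.52 and 10.9 CPM in IVF_1, and FOS had 4.21 and 1.36 CPM in PA_1, against 4.47 and 4.25 CPM in IVF_1. In both genes the first PA_1 library was several times the second. Of 21 genes of the ERK feedback list 5 fell and none rose (median -0.26; edgeR gave 0 at an unadjusted p under 0.05 with 1.5-fold, DESeq2 0 and limma-voom 0), SPRY4, an inhibitor of receptor tyrosine kinase signalling, having 3.39 and 5.40 CPM in PA_1, against 18.2 and 19.4 CPM in IVF_1 (log2 fold change -2.14, SE 0.17, edgeR adjusted p = 1.07e-07). Of 23 targets and partners of the mechanosensitive factors YAP and TEAD 4 fell and 1 rose (median -0.06), AMOTL2, which tethers YAP at junctions, among those that fell (-0.68, SE 0.072). Of the ERK feedback list, the higher count was 1 without PA_1 replicate 1 and 1 without IVF_1 replicate 2. Of the YAP and TEAD list, the higher count was 0 without PA_1 replicate 2.

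Among genes of epithelial junctions more fell in PA_1 than rose. Of 54 tested members, 10 fell and 3 rose, with a median of -0.28, and by adjusted p alone 22 were lower and 5 higher. CLDN4, a tight junction claudin at chr3:11039706-11053925, had 19.3 and 20.3 CPM in PA_1, against 63.0 and 57.1 CPM in IVF_1 (log2 fold change -1.6, SE 0.11, edgeR adjusted p = 1.31e-08). ST14, the membrane protease matriptase, had 119 and 113 CPM in PA_1, against 208 and 195 CPM in IVF_1 (log2 fold change -0.80, SE 0.071, edgeR adjusted p = 3.5e-07), and its inhibitor SPINT1, named after its values were seen, had 51.5 and 58 CPM in PA_1, against 99.0 and 92.5 CPM in IVF_1 (-0.81). CLDN4, ST14 and SPINT1 were lower in each PA_1 library than in each IVF_1 library, but they were picked as called genes, so this adds no separate support. CLDN7 (-0.97) and ESRP2, a splicing regulator of epithelia (-0.99), also fell. An increase was found for GJC3, a gap junction gene named after its values were seen, at 113 counts in the PA_1 libraries and 12 in the IVF_1 libraries, with none in PA_3. KRT14, a keratin of basal epithelia, had 63.2 and 56.3 CPM in PA_1, against 154 and 143 CPM in IVF_1 (log2 fold change -1.31, SE 0.085, edgeR adjusted p = 8.6e-09), and CDH3, P-cadherin, had 16.9 and 14.2 CPM in PA_1, against 36.4 and 34.2 CPM in IVF_1 (log2 fold change -1.17, SE 0.11, edgeR adjusted p = 7.2e-07). The remaining tested keratins were KRT5 (-0.98), KRT80 (-1.14), KRT10 (0.28), KRT222 (0.29) and KRT27 (0.23), and the calls of KRT5 and KRT80 did not hold. Calls were lost under the settings that follow, each with its log2 fold change and adjusted p: KRT5 with DESeq2 (-0.95, 0.123), without IVF_1 replicate 1 (-1.11, 0.0723), without IVF_1 replicate 2 (-0.85, 0.167) and without PA_1 replicate 1 (-0.51, 0.259); KRT80 with DESeq2 (-1.12, 0.18), without IVF_1 replicate 1 (-0.70, 0.376) and without PA_1 replicate 1 (-0.86, 0.146). The value of KRT27 was -0.92 without PA_1 replicate 1.

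The actin list had 3 members that fell and 1 that rose of 45, but 28 were lower by adjusted p alone and 3 higher, with a median of -0.25. ACTG1, cytoplasmic gamma-actin, had 3768 and 3190 CPM in PA_1, against 4910 and 4374 CPM in IVF_1 (log2 fold change -0.42, SE 0.088, edgeR adjusted p = 0.00195), and ACTB, cytoplasmic beta-actin, had 1425 and 1218 CPM in PA_1, against 1571 and 1407 CPM in IVF_1 (log2 fold change -0.17, SE 0.084, edgeR adjusted p = 0.131); both were chosen after their values were seen, and ACTB passed neither threshold. MYL9, a regulatory light chain of myosin, fell (-0.80, SE 0.092). Among integrins, 2 of 24 rose and 3 fell, with ITGB5 (-0.82, SE 0.078) and the collagen receptor chain ITGA11 (-1.69, SE 0.19) lower and ITGBL1, which resembles a beta chain, higher (2.81, SE 0.59). Of the integrin list, the higher count was 1 without IVF_1 replicate 2. PIEZO1, a channel opened by membrane stretch, fell (-0.92, SE 0.10).

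Among genes of axon guidance and of neuronal surfaces more rose in PA_1 than fell, beside the neural marker sum of 585 and 494 CPM in PA_1 against 403 and 388 CPM in IVF_1. Of 55 tested semaphorins, plexins, netrins, slits and their receptors 13 rose and 1 fell (median 0.22). DCC, the netrin receptor, had 23.9 and 23.8 CPM in PA_1, against 11.2 and 13.2 CPM in IVF_1 (log2 fold change 0.97, SE 0.13, edgeR adjusted p = 2.48e-05), and ROBO1, a receptor for slits, had 422 and 418 CPM in PA_1, against 250.3 and 274 CPM in IVF_1 (log2 fold change 0.68, SE 0.071, edgeR adjusted p = 1.93e-06). ROBO2 (0.68, SE 0.095) and ROBO3 (0.94, SE 0.15) rose as well, and the decrease was in UNC5C, another netrin receptor, with 2.04 and 2.07 CPM in PA_1, against 7.31 and 7.20 CPM in IVF_1 (-1.82). Of 20 ephrins and EPH receptors 4 rose and 1 fell (median 0.28). The ligand gene EFNA5 had 71.5 and 70.8 CPM in PA_1, against 38.7 and 40.3 CPM in IVF_1 (log2 fold change 0.85, SE 0.083, edgeR adjusted p = 1e-06), EPHA3 and EPHB1, both receptors, had log2 fold changes of 1.55 and 1.11, and EPHA10 was the member that fell (-1.39, SE 0.25). Of the guidance list, the higher count was 7 without IVF_1 replicate 1 and the lower count was 2 without PA_1 replicate 2. Of the ephrin list, the lower count was 2 without PA_1 replicate 1. Of 45 cadherins and protocadherins 11 rose and 5 fell (median 0.14). PCDH11X, an X-linked protocadherin, had 48.3 and 49.8 CPM in PA_1, against 19.9 and 22.9 CPM in IVF_1 (log2 fold change 1.20, SE 0.10, edgeR adjusted p = 1.04e-07), and DCHS1, a large cadherin of planar polarity, had 225 and 208 CPM in PA_1, against 125 and 124 CPM in IVF_1 (log2 fold change 0.80, SE 0.069, edgeR adjusted p = 2.45e-07). CDH7 (1.09) and CDH23 (0.97) rose, whereas CDH3 fell (-1.17). Of the cadherin list, the higher count was 7 without IVF_1 replicate 1 and 6 without IVF_1 replicate 2 and the lower count was 2 without IVF_1 replicate 2.

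Of 69 tested synaptic and neuronal genes 14 rose and 6 fell, with a median of 0.24, and by adjusted p alone 32 were higher and 7 lower. PRPH, the intermediate filament peripherin of peripheral neurons, had 18.4 and 15.3 CPM in PA_1, against 6.71 and 6.48 CPM in IVF_1 (log2 fold change 1.36, SE 0.14, edgeR adjusted p = 1.34e-06), whereas NEFM, a neurofilament subunit, had 3.02 and 2.62 CPM in PA_1, against 9.37 and 10.5 CPM in IVF_1 (log2 fold change -1.80, SE 0.18, edgeR adjusted p = 9.77e-07). GPM6A, a membrane glycoprotein of neurons, rose (0.87, SE 0.11). The direction was thus mixed among structural neuronal genes. Of the synaptic list, the lower count was 3 without IVF_1 replicate 1 and 3 without IVF_1 replicate 2. Of 70 sodium and calcium channel genes 13 rose and 6 fell (median 0.27). SCN1A, a voltage-gated sodium channel of neurons, had 146 and 163 CPM in PA_1, against 75.4 and 85.0 CPM in IVF_1 (log2 fold change 0.94, SE 0.086, edgeR adjusted p = 4.16e-07), and the decreases included ITPR3, which releases calcium from stores (-0.82, SE 0.086), and SCNN1A of the epithelial sodium channel (-0.75, SE 0.12). Of the sodium and calcium channels, the lower count was 3 without IVF_1 replicate 2. Of 60 potassium channel genes 7 rose (11.7%) and 5 fell (8.33%), at a median of 0.14. These genes summed to only 446 CPM in PA_1 and 439 CPM in IVF_1. Of all genes at 1 to 10 CPM 15.5% rose and 10.5% fell. KCNJ3, an inward rectifier opened by G proteins, had 23.2 and 23.8 CPM in PA_1, against 58.2 and 54.2 CPM in IVF_1 (log2 fold change -1.26, SE 0.092, edgeR adjusted p = 3.08e-08). KCNC2 and KCNN3 had log2 fold changes of 1.67 and 0.88. Of the potassium channels, the higher count was 4 without PA_1 replicate 1 and 4 without IVF_1 replicate 1 and the lower count was 2 without IVF_1 replicate 1. Of 83 tested members of the list of chloride channels and ligand-gated receptors 11 rose and 8 fell (median 0.08), and CLIC6 had 5.87 and 6.60 CPM in PA_1, against 18.9 and 19.8 CPM in IVF_1 (log2 fold change -1.65, SE 0.15, edgeR adjusted p = 3.01e-07). The receptor genes GABRE (1.02) and GABRA3 (0.73) rose. ADRA2B (1.73) and GRM7 (1.28), which this list holds but which encode receptors coupled to G proteins, rose too. Of the chloride channels and ligand-gated receptors, the higher count was 6 without IVF_1 replicate 1 and the lower count was 5 without IVF_1 replicate 1.

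Glycolytic genes showed few calls. Of 30 tested members 3 rose and none fell (edgeR gave 0 at an unadjusted p under 0.05 with 1.5-fold, DESeq2 0 and limma-voom 0 on the lower side), with a median of 0.10, which was -0.07 without PA_1 replicate 1. GAPDH, a glycolytic enzyme named after its values were seen, had 4587 and 3806 CPM in PA_1, against 4067 and 3755 CPM in IVF_1 (log2 fold change 0.10, SE 0.086, edgeR adjusted p = 0.394), and the glucose transporter gene SLC2A3, named likewise, had 698 and 584 CPM in PA_1, against 675 and 674 CPM in IVF_1 (-0.07). The symbol LDHB, a lactate dehydrogenase subunit, stood on 2 genes of the table, and reads may be split between them. The more abundant had 1114 and 1119 CPM in PA_1, against 1350 and 1230 CPM in IVF_1 (log2 fold change -0.21), and the other 199 and 210.5 CPM in PA_1, against 111 and 115 CPM in IVF_1 (0.86), with a mean of 6.22 CPM in PA_3. Of the glycolysis list, the higher count was 6 without PA_1 replicate 2 and 5 without IVF_1 replicate 1 and the lower count was 1 without PA_1 replicate 1. Of 27 genes of the hypoxia response 3 rose and none fell (edgeR gave 1 at an unadjusted p under 0.05 with 1.5-fold, DESeq2 0 and limma-voom 0 on the lower side; median 0.26), the MYC antagonist MXI1 among them (0.95, SE 0.13). Of the hypoxia list, the higher count was 7 without PA_1 replicate 2 and 1 without IVF_1 replicate 1. Lipid genes split: of 37 tested 2 rose and 5 fell, ACSL1, which activates fatty acids (-1.26, SE 0.10), the lipoprotein lipase gene LPL (-1.22, SE 0.24) and the fatty acid carrier gene FABP7 (-1.22, SE 0.19) being lower. Of the lipid list, the higher count was 1 without IVF_1 replicate 2. In the cholesterol synthesis list 2 of 26 rose and none fell (edgeR gave 0 at an unadjusted p under 0.05 with 1.5-fold, DESeq2 0 and limma-voom 0 on the lower side), and the higher count was smaller without IVF_1 replicate 2. Those that rose included LPIN1 (0.82, SE 0.075), an enzyme of glycerolipid synthesis rather than of cholesterol synthesis. In polyamine, proline and glutamine metabolism 3 of 27 fell, OAT (-0.67, SE 0.070) and the proline catabolism gene ALDH4A1 (-0.70, SE 0.093) among them.

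Transporters changed in both directions. Of 71 tested carriers of glucose, amino acids and monocarboxylates 5 rose and 11 fell (median -0.12), with the fructose transporter gene SLC2A5 (-0.92, SE 0.10), SLC16A5 (-0.80, SE 0.13) and SLC43A3 (-0.66, SE 0.11) lower and SLC16A14 (1.13, SE 0.20) higher. Of 137 other solute carriers 14 rose and 18 fell (median 0.00). SLC4A3, an anion exchanger, rose (1.03, SE 0.11), and the bile acid carrier gene SLC10A1 (-1.44, SE 0.15) and its relative SLC10A4 (-1.07, SE 0.14) fell. Of 15 genes of metallothioneins and metal transport 3 fell and none rose (edgeR gave 0 at an unadjusted p under 0.05 with 1.5-fold, DESeq2 0 and limma-voom 0 on the higher side), the zinc and iron importer gene SLC39A8 among them (-1.08, SE 0.24). Of the glucose and amino acid carriers, the higher count was 3 without IVF_1 replicate 1. Of the other solute carriers, the higher count was 9 without IVF_1 replicate 1 and the lower count was 11 without IVF_1 replicate 1.

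Ligands, receptors and modulators of the main growth and patterning pathways had calls in both directions. Of 50 tested WNT genes 7 rose and 8 fell (median 0.08). FZD8, a WNT receptor, had 46.5 and 42.4 CPM in PA_1, against 21 and 20.9 CPM in IVF_1 (log2 fold change 1.09, SE 0.11, edgeR adjusted p = 1.02e-06). DKK1, a secreted WNT inhibitor, had 5 counts in the PA_1 libraries and 60 in the IVF_1 libraries, and its fitted log2 fold change of -4.09 became -3.48 without PA_1 replicate 1. WLS, which carries WNT proteins to the surface (-1.43, SE 0.21), FZD10 (-1.64, SE 0.25) and ROR2 (-0.66, SE 0.082) fell. Of the WNT list, the higher count was 4 without PA_1 replicate 1 and 3 without IVF_1 replicate 1. Of 64 genes of the FGF, EGF, IGF and insulin families 5 rose (7.81%) and 6 fell (9.38%), at a median of -0.08. These shares lay near the 7.34% and 5.93% over all genes. GFRA1, a co-receptor for GDNF, had 65.0 and 62.2 CPM in PA_1, against 26 and 27.9 CPM in IVF_1 (log2 fold change 1.24, SE 0.093, edgeR adjusted p = 4.15e-08), and the ligand gene FGF19 had 10.6 and 11.7 CPM in PA_1, against 27.6 and 28.4 CPM in IVF_1 (log2 fold change -1.34, SE 0.13, edgeR adjusted p = 7.21e-07). ERBB2 (-0.68, SE 0.071) and the VEGF receptor gene FLT1 (-0.93, SE 0.12) fell, and the insulin receptor substrate gene IRS2 rose (0.75, SE 0.11). PDGFD, a platelet-derived growth factor, rose (0.90, SE 0.089) and was higher still in PA_3, at 51.6 and 48.3 CPM in PA_1, 122 and 112 CPM in PA_3 and 25.9 and 27.9 CPM in IVF_1 (log2 fold change of PA_1 over PA_3 -1.22, edgeR adjusted p = 3.88e-09).

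Of 47 tested BMP and TGF-beta genes 2 rose and 7 fell (median -0.03). ID1, a BMP target, fell (-1.0, SE 0.087) while its relative ID4 rose (0.82, SE 0.10), and the inhibitory SMAD7 fell (-0.73, SE 0.13). Of the BMP and TGF-beta list, the higher count was 4 without PA_1 replicate 1 and the lower count was 4 without IVF_1 replicate 1. In the hedgehog pathway 1 of 19 rose (5.26%) and 2 fell (10.5%), against 7.34% and 5.93% over all genes. HHIP, a decoy receptor that hedgehog signalling itself induces, had 15.7 and 20.2 CPM in PA_1, against 41 and 36.8 CPM in IVF_1 (log2 fold change -1.13, SE 0.12, edgeR adjusted p = 2.96e-06). The target and effector gene GLI1 fell (-0.66, SE 0.11) and SCUBE1 rose (0.84, SE 0.083). Of the hedgehog list, the higher count was 3 without PA_1 replicate 2 and 2 without IVF_1 replicate 1. In the NOTCH pathway 1 of 26 rose and 2 fell, and each of these calls was lost in at least 1 setting. Calls were lost under the settings that follow, each with its log2 fold change and adjusted p: NOTCH4 without IVF_1 replicate 1 (0.86, 0.0774); HEY1 without IVF_1 replicate 2 (-0.77, 0.132); HES4 with DESeq2 (-1.07, 0.178), without IVF_1 replicate 1 (-1.04, 0.119), without IVF_1 replicate 2 (-1.08, 0.0885) and without PA_1 replicate 1 (-1.12, 0.0551). Of the NOTCH list, the higher count was 5 without PA_1 replicate 2, 0 without IVF_1 replicate 1 and 2 without IVF_1 replicate 2 and the lower count was 1 without PA_1 replicate 1, 1 without IVF_1 replicate 1 and 0 without IVF_1 replicate 2. In the retinoic acid pathway 2 of 20 rose and 2 fell (10% each way), at a median of 0.23. RARG, a retinoic acid receptor, had 46 and 53 CPM in PA_1, against 103 and 103 CPM in IVF_1 (log2 fold change -1.06, SE 0.081, edgeR adjusted p = 5.21e-08), and CYP26A1, which degrades retinoic acid, had 267 and 286 CPM in PA_1, 541 and 523 CPM in PA_3 and 173 and 174 CPM in IVF_1 (log2 fold change 0.67, SE 0.065, edgeR adjusted p = 8.84e-07 for PA_1 over IVF_1). DHRS3, which turns retinal back to retinol, fell (-1.73, SE 0.26). Of the retinoic acid list, the higher count was 1 without PA_1 replicate 1 and 1 without IVF_1 replicate 1.

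Immune genes were called in both directions, with more decreases than increases in the interferon and cytokine lists. Of 29 tested interferon-stimulated genes 8 fell and 2 rose (median -0.18), with IRF7 (-1.07, SE 0.20) and IRF1 (-0.79, SE 0.16), both interferon regulatory factors, lower. By adjusted p alone 10 were lower and 6 higher, and DESeq2 called 4 lower and 2 higher at 1.5-fold. The summed level of the list was higher in PA_1, at 708 CPM against 634 CPM in IVF_1. TRIM21, a cytosolic antibody receptor, averaged 1.03 ± 0.222 CPM in PA_1 and 4.70 ± 0.625 CPM in IVF_1 (SD, n = 2 each; log2 fold change -2.15) and had no count in PA_3. Of the interferon list, the higher count was 1 without IVF_1 replicate 1 and the lower count was 4 without IVF_1 replicate 2. Of 19 genes of antigen presentation 2 rose and 3 fell (median -0.08), and with the 4 libraries alone 2 rose and 2 fell. TAP2, a subunit of the peptide transporter, had 29.6 and 28.4 CPM in PA_1, 65.4 and 64.3 CPM in PA_3 and 74.7 and 70.7 CPM in IVF_1 (log2 fold change -1.32, SE 0.081, edgeR adjusted p = 3.89e-09 for PA_1 over IVF_1), whereas its partner TAP1, named after its values were seen, had 12.1 and 9.38 CPM in PA_1, against 10.9 and 9.29 CPM in IVF_1 (0.10). B2M, the light chain of class I molecules, had 14.8 and 14.9 CPM in PA_1, against 26.7 and 27.2 CPM in IVF_1 (log2 fold change -0.86, SE 0.10, edgeR adjusted p = 1.05e-05), and ERAP1, which trims peptides, rose (2.33, SE 0.26). Of the antigen presentation list, the higher count was 1 without PA_1 replicate 1, 1 without IVF_1 replicate 1 and 1 without IVF_1 replicate 2. Of 59 cytokines, chemokines and receptors 9 fell and 2 rose (median -0.15), the decreases including CXCL16 (-1.25, SE 0.14), TNFSF11 (-1.04, SE 0.10), TNFRSF12A (-1.07, SE 0.10) and TNFRSF19 (-0.82, SE 0.13). Of the cytokine list, the higher count was 4 without PA_1 replicate 1, 1 without PA_1 replicate 2 and 1 without IVF_1 replicate 1.

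Of 87 tested matrix genes 10 rose and 10 fell (median 0.04). The anchoring fibril collagen COL7A1 (0.84, SE 0.074), SPON1 (0.90, SE 0.10) and the small proteoglycan gene FMOD (1.24, SE 0.14) rose, and EMILIN2, an elastic fibre protein, fell (-1.41, SE 0.13). Of 76 proteases and inhibitors 9 rose and 7 fell (median 0.04). Lysosomal cysteine proteases moved apart, CTSV higher (1.05, SE 0.072) and CTSC lower (-1.20, SE 0.10), the protease inhibitor relative SERPINF1 rose (0.69, SE 0.078), and ADAMTS8 had 7 counts in the PA_1 libraries and 69 in the IVF_1 libraries (-3.84). Of the matrix list, the lower count was 5 without IVF_1 replicate 1. Of the protease list, the lower count was 4 without IVF_1 replicate 1.

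Transcription factors of developmental families had calls in both directions. Of 73 tested 14 rose and 11 fell, with a median of -0.07. FOXB1, a forkhead factor of the developing brain, had 102 and 104 CPM in PA_1, 220.0 and 233 CPM in PA_3 and 47.9 and 46.7 CPM in IVF_1 (log2 fold change 1.13, SE 0.073, edgeR adjusted p = 7.7e-09 for PA_1 over IVF_1). IRX2 (1.37, SE 0.14) and SOX9, a factor of cartilage and neural crest (0.87, SE 0.092), rose, and FOXO1, an effector that insulin signalling restrains (-0.76, SE 0.080), DMRTA2 (-2.48, SE 0.44) and ZIC4 (-3.55, SE 0.64) fell. Of the transcription factor list, the higher count was 7 without PA_1 replicate 1, 5 without IVF_1 replicate 1 and 7 without IVF_1 replicate 2 and the lower count was 7 without IVF_1 replicate 1 and 6 without IVF_1 replicate 2. Of 21 HOX, MEIS and PBX genes 6 fell and none rose (edgeR gave 0 at an unadjusted p under 0.05 with 1.5-fold, DESeq2 0 and limma-voom 0 on the higher side), at a median of -0.75. By adjusted p alone 6 were lower and 1 higher. The summed level of the list went the other way, at 549 CPM in PA_1 and 475.5 CPM in IVF_1. MEIS2 was called in every setting run, with 2.68 and 2.35 CPM in PA_1, against 4.89 and 5.82 CPM in IVF_1 (log2 fold change -1.08, SE 0.22, edgeR adjusted p = 0.00157). Calls were lost under the settings that follow, each with its log2 fold change and adjusted p: HOXA7 with DESeq2 (-1.65, 0.225), without IVF_1 replicate 1 (-1.17, 0.343), without IVF_1 replicate 2 (-1.96, 0.0507), without PA_1 replicate 1 (-1.7, 0.103) and without PA_1 replicate 2 (-1.57, 0.074); HOXB9 with DESeq2 (-0.94, 0.0764), without IVF_1 replicate 2 (-0.69, 0.152) and without PA_1 replicate 1 (-0.71, 0.0609); HOXC4 with DESeq2 (-1.02, 0.0944), without IVF_1 replicate 1 (-1.02, 0.0644) and without PA_1 replicate 1 (-0.80, 0.065); HOXC6 without IVF_1 replicate 2 (-0.66, 0.0757); HOXC8 with DESeq2 (-0.99, 0.108) and without IVF_1 replicate 2 (-0.80, 0.132). Of the HOX list, the higher count was 1 without PA_1 replicate 2 and the lower count was 3 without PA_1 replicate 1 and 2 without IVF_1 replicate 2. The HOX genes lay between 0.228 and 5.80 CPM in PA_1 and between 0.715 and 10.03 CPM in IVF_1.

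Of 339 tested zinc finger genes 24 rose and 6 fell, with a median of 0.08, and by adjusted p alone 69 were higher and 27 lower. At 1.5-fold these shares lay near those over all genes on the higher side. Among them ZKSCAN2 (1.39, SE 0.16), ZFP30 (0.98, SE 0.092), ZNF782 (1.57, SE 0.21) and ZNF672 (0.70, SE 0.086) rose, and ZNF622 (-1.05, SE 0.082) and ZNF354B (-1.14, SE 0.12) fell. Such genes come in near-identical copies, between which reads may be split. Of 141 histone modifiers 6 rose and 2 fell, RING1, a ligase subunit of Polycomb complexes, having 132 and 126 CPM in PA_1, against 69.7 and 74.0 CPM in IVF_1 (log2 fold change 0.84, SE 0.072, edgeR adjusted p = 1.99e-07), and of 74 remodelling subunits 1 rose and 0 fell (edgeR gave 0 at an unadjusted p under 0.05 with 1.5-fold, DESeq2 0 and limma-voom 0 on the lower side). Of the histone modifier list, the higher count was 2 without PA_1 replicate 1 and the lower count was 5 without PA_1 replicate 2 and 1 without IVF_1 replicate 1. Of the remodelling list, the higher count was 2 without PA_1 replicate 1, 0 without PA_1 replicate 2 and 0 without IVF_1 replicate 1.

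Few genes of the cell division machinery were called. Of 51 tested DNA replication genes none was called (edgeR gave 0 at an unadjusted p under 0.05 with 1.5-fold, DESeq2 0 and limma-voom 0 higher, and 0, 0 and 0 lower by the same 3 counts), and of 86 genes of mitosis and cell cycle control 1 rose and 5 fell (median 0.02). The centromere genes CENPQ (-1.10, SE 0.10) and CENPV (0.81, SE 0.10) moved in opposite directions. Of the mitosis list, the higher count was 2 without PA_1 replicate 2 and 2 without IVF_1 replicate 2. Of 111 splicing factors 2 rose and 1 fell (median -0.08), RBM47 of epithelia being lower (-1.46, SE 0.19). Of the splicing list, the higher count was 1 without PA_1 replicate 1, 1 without IVF_1 replicate 1 and 1 without IVF_1 replicate 2 and the lower count was 2 without PA_1 replicate 1 and 2 without IVF_1 replicate 2. In the BCL2 and caspase list 1 of 33 rose and 3 fell, BAD, a promoter of cell death, falling (-0.84, SE 0.16). Of the BCL2 and caspase list, the higher count was 0 without PA_1 replicate 1 and 2 without IVF_1 replicate 2. Of 58 cilium genes 5 rose and 1 fell (median 0.18). Of the cilium list, the higher count was 1 without PA_1 replicate 1 and 3 without IVF_1 replicate 1 and the lower count was 2 without PA_1 replicate 2 and 0 without IVF_1 replicate 1. Of 61 kinesins and dyneins 4 rose (6.56%) and 3 fell (4.92%), near the 7.34% and 5.93% over all genes. The axonemal heavy chain genes DNAH5 (1.04, SE 0.20) and DNAH6 (0.65, SE 0.11) were higher and DNAH11 (-1.74, SE 0.15) was lower. Of the motor list, the higher count was 7 without PA_1 replicate 2 and the lower count was 1 without IVF_1 replicate 1 and 1 without IVF_1 replicate 2. Of 141 deubiquitinases and cullin adaptors 8 rose (5.67%) and 4 fell (2.84%), shares under those over all genes. FBXO39 (1.39, SE 0.12) and KLHL24 (0.86, SE 0.10) were higher. Of the deubiquitinase and adaptor list, the higher count was 5 without PA_1 replicate 1 and the lower count was 1 without PA_1 replicate 2 and 2 without IVF_1 replicate 2. Among 105 G protein regulators and adhesion receptors 12 rose and 5 fell, ADGRE5 (1.43, SE 0.14) higher and ADGRG2 (-1.08, SE 0.084) lower. Of the receptor list, the higher count was 5 without IVF_1 replicate 1 and the lower count was 2 without IVF_1 replicate 2. In the autophagy and lysosome list 3 of 75 rose and 5 fell, the vacuolar ATPase subunit ATP6V0D2 (-1.08, SE 0.14) and the cathepsin gene CTSZ (-0.73, SE 0.13) being lower. Of the autophagy list, the higher count was 1 without PA_1 replicate 1 and the lower count was 3 without IVF_1 replicate 1.

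By chromosome, the median log2 fold change of PA_1 over IVF_1 lay between -0.06 on chromosome 12 and 0.03 on chromosome 1 among the autosomes, and it was 0.08 on the X chromosome. Of 608 tested X-linked genes 69 rose (11.3%) and 28 fell (4.61%), against 7.34% and 5.93% over all genes. The X median was -0.04 for PA_1 over PA_3 and 0.12 for PA_3 over IVF_1, comparisons that share libraries with that of PA_1 and IVF_1. None of 13 X-linked genes that have a partner on the Y chromosome was called (edgeR gave 0 at an unadjusted p under 0.05 with 1.5-fold, DESeq2 0 and limma-voom 0 higher, and 0, 0 and 0 lower), with a median of 0.00. Of 129 genes that the table assigns to the Y chromosome 25 were tested, of which 2 rose and 4 fell (median -0.13). Their summed level was 221 CPM in PA_1, 277 CPM in PA_3 and 254 CPM in IVF_1. An embryo with maternal chromosomes only has no Y chromosome, so in PA_1 and PA_3 these counts are not Y-linked expression. The source of these reads was not tested. The 3 genes of the Y-linked list that were in the table had too few counts to be tested. In the X-linked MAGE, PAGE, GAGE, SSX, BEX and TCEAL families 2 of 15 rose and 1 fell, the fall being that of PAGE4, and TCEAL2 had 24.7 and 26.1 CPM in PA_1, against 7.49 and 6.74 CPM in IVF_1 (log2 fold change 1.83, SE 0.12, edgeR adjusted p = 1.15e-08). Of the X-linked families, the higher count was 1 without PA_1 replicate 2 and 1 without IVF_1 replicate 1.

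Genes were also taken in runs of 40 neighbouring tested genes along each chromosome, in the coordinates of the deposited table (build Sscrofa11.1 per the submitters' processing notes). Of 362 runs, 47 had a median of 0.1 or more and 30 a median of -0.1 or less. The highest was chrX:68475601-83182680, with a median of 0.34, 8 genes that rose and 2 that fell, those that rose including PCDH11X and the formin gene DIAPH2, with 18.3 and 18.6 CPM in PA_1, against 11.9 and 11.9 CPM in IVF_1 (0.63). The run chrX:113460191-124453249 had a median of 0.32 and held GABRE (1.02) and GABRA3 (0.73). In chrX:42947686-45880201 the median was 0.25, with 6 genes that rose and 1 that fell, PAGE4. The run chrX:83187979-87427370 had a median of 0.24 and held TCEAL2 and the thymosin gene TMSB15A, with 61.3 and 64.2 CPM in PA_1, against 25.3 and 24.9 CPM in IVF_1 (1.32). On the autosomes the highest was chr2:91230738-105221552, with a median of 0.28, 11 genes that rose and 1 that fell. It held ERAP1, the adhesion receptor gene ADGRV1 (0.73), the arrestin relative ARRDC3 (0.67) and EDIL3, a matrix protein that binds integrins, with 6.0 and 6.76 CPM in PA_1, against 2.48 and 2.16 CPM in IVF_1 (1.45). The next highest autosomal run, chr6:58242352-59562148, had a nearly equal median of 0.28, with 7 genes that rose and 0 that fell. The lowest of all runs was chr7:43486-5390619, at a median of -0.22. DIAPH2, TMSB15A and EDIL3 are named after their values were seen.

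**Figure D5:**
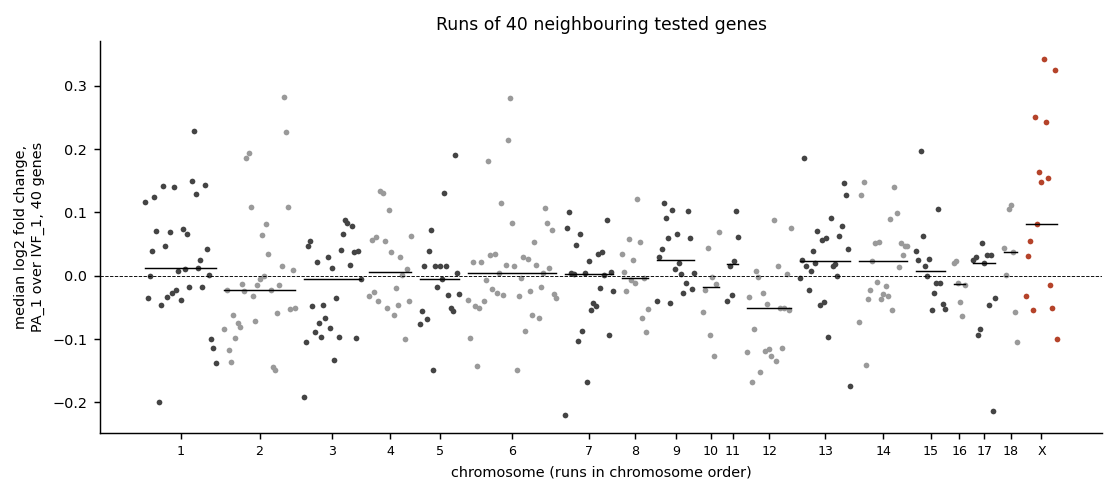
Median log2 fold change of PA_1 over IVF_1 for each of 362 runs of 40 neighbouring tested genes, by chromosome, each point a run, with a line at the median of the runs of a chromosome and the X chromosome in red. Most runs lie within 0.1 of 0, and the X chromosome holds the 2 highest runs (0.34 and 0.32).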

How the data were processed

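Polyadenylated RNA was purified from 1 µg of total RNA and sequenced as 151 bp paired reads from a stranded kit, per the labels' protocols. The submitters' processing notes name cutadapt 2.8, STAR 2.7.1a and the pig build Sscrofa11.1, while the counter, its strand setting and the annotation release are not stated in the sources used. The deposited table held raw read counts per gene, per the file headers, and these counts were used for every test. The TPM values in the same deposited table, scaled by the authors per gene length and library, served only to pick the 100 genes of highest level. These were picked among tested genes that had a symbol and lay outside the mitochondrial chromosome. A further 54 columns of other samples were not used. Of the 31908 genes, 16698 took their symbol from the table, 1420 by NCBI gene ID and 167 from a gene name table, and 13623 stayed unnamed; 87 symbols stood on more than 1 gene.

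The 6 libraries of the 3 lines were grouped by the line named in the labels and fitted together with edgeR 4.0.16 in R 4.3.3 (trimmed mean of M values scaling, edgeR's default filter on low counts by line, robust quasi-likelihood test, Benjamini-Hochberg adjustment over 15197 genes). The contrast was PA_1 over IVF_1. The biological coefficient of variation was 6.11%, with 3 residual degrees of freedom. CPM values are scaled the same way. An exact permutation test of 2 against 2 libraries cannot go under p = 0.333 and was not used. A gene with no count was given a floor of 3 counts over the libraries of a line, equal to 0.063 CPM in PA_1 and 0.094 CPM in IVF_1, which covers counting error only. The code was tested on simulated data.

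Set aside were 352 listed symbols of 11 lists, 310 of them in the table. The remaining genes were grouped in 70 lists. Members and lists were chosen with earlier results of these data known. Genes were named by a rule that took the 15 called genes with a symbol and the largest fold change in each direction whose libraries did not overlap and whose higher line reached 5 CPM, the 10 with a symbol and the largest CPM difference in each direction, genes with a symbol under 0.5 CPM in one line and at 5 CPM or more in the other, up to 6 called members of each list by smallest adjusted p, and every member of lists with at most 12 tested members. It took 301 genes, of which the text gives a part, and some genes are not reported here. Chromosome medians and runs of 40 genes are descriptions.

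The alternatives tried were other fold minimums, a filter at 1 CPM or none, DESeq2 1.42.0, limma-voom (limma 3.58.1), other scalings, the 4 libraries alone, a replicate block and each library left out. A line left with 1 library is assumed to vary like the others.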

Additional observations from a re-analysis of the deposited data

How the results depend on the processing

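Counts here are over the 14958 tested genes outside the lists set aside, against 1923 called, 1092 higher and 831 lower. With no fold minimum 4635 genes were called (2285 higher, 2350 lower), and at 2-fold 943 (543 higher, 400 lower), the fold minimum itself setting the difference. DESeq2 called 1290 (717 higher, 573 lower), and the cause was not tested. With 1 library left out in turn the calls ranged from 1354 to 2199, those higher from 754 to 1300 and those lower from 600 to 899. Other settings gave 1967 calls under upper-quartile scaling (1233 higher, 734 lower), 1922 under RLE size factors, 1870 with limma-voom, 1767 with the 1 CPM filter, 2110 with no filter and 1845 with the 4 libraries alone. No called gene that the text names changed direction. Of the 301 genes taken by the rule 213 kept their call under every setting other than the fold minimum, and 87 lost it with at least 1 library left out. DESeq2 moved 19 of the 68 list counts by over 1.5 times and upper-quartile scaling moved 5. Of the 70 list medians 19 changed sign under at least 1 setting. Apart from the keratins, with a median of -0.38, these lay within 0.12 of 0. Upper-quartile scaling moved 18 of 19 chromosome medians by more than the spread between replicates, and the X median was 0.12 under it and 0.10 without PA_1 replicate 1.

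With the replicate number as a block 1968 genes were called, 1122 higher and 846 lower. The numbers do not pair the samples: with 2 replicates a line, deviations of libraries with the same number correlated at 0.064 between PA_1 and IVF_1, -0.023 between PA_1 and PA_3 and -0.032 between PA_3 and IVF_1 over 15197 genes. The planned search of promoter sequences for motifs was not run. Depth limits genes of low counts, and 2 libraries a line limit the precision of each value.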
